A study of Mus musculus with 126 samples.

Results

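The 38 genes described here build the mitotic spindle, attach chromosomes to it, hold the cell at the spindle assembly checkpoint and split the cell at the end of mitosis. They were taken by symbol from a list of mitotic genes. The list was chosen with earlier results of these data known, so the choice was not independent of the values. Each was read from the probe set that carries its symbol alone in the platform's annotation. Of the 38 genes, 37 had such a probe set, 1 each, out of 41345 probe sets on the array and 23507 that were tested. Cyclin B1 (Ccnb1) was not analysed here. All 37 measured genes had a mean above the filter on low values, which was the 10th percentile of all probe set means.

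RNA of the primary prostate tumors of 126 transgene-positive (TRAMP × NOD/ShiLtJ) F2 males was read on Affymetrix Mouse Gene 2.0 ST arrays, 1 for each male, and the values are on a log2 scale. TRAMP is a transgenic mouse of C57BL/6 background in which the SV40 T antigens are made in prostate epithelium from a probasin promoter, and every male in the data carried the transgene, so no tumor-free or transgene-negative tissue served as a control. Each F2 male inherited its own mixture of C57BL/6 and NOD/ShiLtJ alleles. The males were killed at 30 weeks of age or earlier at a humane endpoint, so the age at death was not the same for all. The labels give metastasis for 87 males and none for 39, without naming the site, and metastasis is read here as the study's trait of distant metastasis. The prostate tumor was weighed as primary tumor burden, which ran from 0.1 to 14 g with a median of 4.54 g. It was 1 g or more in 111 males, of which 78 had distant metastasis, and under 1 g in 15, of which 9 did.

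Cells enter mitosis when cyclin-dependent kinase 1 binds its cyclins, and kinetochores that are not yet attached to the spindle then feed the checkpoint proteins Mad2, BubR1 and Bub3 onto Cdc20. While Cdc20 is held, the anaphase-promoting complex (APC/C) cannot mark securin and cyclin B for destruction, and the sister chromatids stay together. Most of these genes are expressed at low levels in resting cells and rise together late in the cell cycle, when the MuvB complex with B-Myb and FoxM1 acts at their promoters. T antigen binds the RB family proteins and p53, and TRAMP tumors are known for a high mitotic activity and for neuroendocrine growth.

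The promoters of checkpoint genes are printed to show the letters through which the MuvB complex and the CCAAT-binding factor NF-Y are known to act. The windows are those of RefSeq on GRCm38.p6, from 250 bases before to 50 bases after the gene start, 300 bases each and written in the direction of the gene. A window was found for 32 of the 38 genes, and there was none for Foxm1, Incenp, Ccna2, Tpx2, Kif20a and Aurkb. The capitals mark the cell cycle genes homology region (CHR, searched as TTTGAA or TTCGAA) and the CCAAT box (CCAAT), each on either strand, so that a match on the other strand reads TTCAAA or ATTGG. The Cdc20 window lies at chr4:118437294-118437593 on the minus strand, that of Bub1 at chr2:127831810-127832109 on the minus strand, that of Bub1b at chr2:118597961-118598260 on the plus strand and that of Bub3 at chr7:131560120-131560419 on the plus strand. The Ttk window lies at chr9:83834439-83834738 on the plus strand, that of Ube2c at chr2:164769679-164769978 on the plus strand and that of Mad2l1 at chr6:66534971-66535270 on the plus strand.
Cdc20: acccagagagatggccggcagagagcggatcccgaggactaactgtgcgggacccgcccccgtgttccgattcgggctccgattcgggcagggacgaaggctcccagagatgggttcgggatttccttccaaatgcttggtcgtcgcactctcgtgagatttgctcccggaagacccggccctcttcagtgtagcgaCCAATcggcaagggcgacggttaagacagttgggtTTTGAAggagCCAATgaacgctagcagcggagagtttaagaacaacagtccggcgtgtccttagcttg
Bub1: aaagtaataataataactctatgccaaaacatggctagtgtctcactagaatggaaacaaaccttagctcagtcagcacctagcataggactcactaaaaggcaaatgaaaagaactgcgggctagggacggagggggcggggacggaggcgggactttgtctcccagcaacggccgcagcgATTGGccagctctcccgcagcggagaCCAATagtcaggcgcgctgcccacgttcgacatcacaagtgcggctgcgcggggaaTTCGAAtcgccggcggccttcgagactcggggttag
Bub1b: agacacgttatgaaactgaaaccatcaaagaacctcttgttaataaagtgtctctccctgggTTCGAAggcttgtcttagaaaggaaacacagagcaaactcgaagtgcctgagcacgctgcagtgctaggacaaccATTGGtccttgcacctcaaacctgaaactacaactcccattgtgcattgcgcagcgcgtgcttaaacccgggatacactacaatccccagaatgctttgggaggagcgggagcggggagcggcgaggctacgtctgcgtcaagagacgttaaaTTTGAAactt
Bub3: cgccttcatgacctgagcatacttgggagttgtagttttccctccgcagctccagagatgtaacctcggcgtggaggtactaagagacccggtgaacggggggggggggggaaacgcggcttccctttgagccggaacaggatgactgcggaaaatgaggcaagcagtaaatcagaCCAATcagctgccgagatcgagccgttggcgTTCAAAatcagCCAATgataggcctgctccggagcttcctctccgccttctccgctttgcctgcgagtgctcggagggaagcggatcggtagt
Ttk: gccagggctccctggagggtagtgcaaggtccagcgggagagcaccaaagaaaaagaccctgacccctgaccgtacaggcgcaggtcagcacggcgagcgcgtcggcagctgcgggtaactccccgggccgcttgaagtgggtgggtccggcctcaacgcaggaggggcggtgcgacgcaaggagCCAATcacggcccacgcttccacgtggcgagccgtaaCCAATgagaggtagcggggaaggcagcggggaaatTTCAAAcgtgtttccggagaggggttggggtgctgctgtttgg
Ube2c: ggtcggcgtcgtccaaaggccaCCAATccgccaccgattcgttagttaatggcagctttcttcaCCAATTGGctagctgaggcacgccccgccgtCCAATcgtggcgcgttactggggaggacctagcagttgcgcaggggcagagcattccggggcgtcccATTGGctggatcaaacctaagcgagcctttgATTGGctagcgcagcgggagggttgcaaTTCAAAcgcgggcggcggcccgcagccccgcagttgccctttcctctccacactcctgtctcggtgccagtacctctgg
Mad2l1: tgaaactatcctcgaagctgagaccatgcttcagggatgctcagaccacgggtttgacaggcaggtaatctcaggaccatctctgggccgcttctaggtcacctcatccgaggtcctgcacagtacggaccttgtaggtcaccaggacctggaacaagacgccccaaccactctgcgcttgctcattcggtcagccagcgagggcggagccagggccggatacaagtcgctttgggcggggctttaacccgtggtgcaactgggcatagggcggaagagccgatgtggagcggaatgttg
The first 6 hold both motifs, and Mad2l1 is shown as a checkpoint gene with neither. Over the 32 windows, a CHR was found in 25 (78.1%), against 19.4% of the windows of all 27025 genes that have one. A CCAAT box was found in 24 (75%), against 37.9% of all genes. Both were found in 22 (68.8%), against 7.70% of all genes, and 2 or more CCAAT boxes in 16 (50%), against 12.2%. The 5 genes with neither were Mad2l1, Pttg1, Birc5, Nuf2 and Nusap1, and 50.3% of all genes had neither. In the Ube2c window CCAAT matches on opposite strands overlap. A match is a description of the letters in this window and no evidence of binding.

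The arrays had medians between 5.84 and 6.05 on the log2 scale. Their mean correlation with the other arrays had a median of 0.97 and was lowest for N1202 (0.88), N275 (0.92) and N293 (0.92), which are tumors under 1 g. The highest correlation between any pair of arrays was 0.99, and no arrays were identical. Chga, which encodes the neuroendocrine granule protein chromogranin A, had a median of 10.71. Dsp, which encodes the desmosomal plaque protein desmoplakin, had a median of 5.70, with 99 tumors below and 27 at or above 7 on the log2 scale. The prostate secretory genes, which include Pbsn, the gene of probasin, had a list mean with a median of 4.82 and a highest value of 10.15, so most tumors lay near the low end of that list's range.

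The mitotic genes were at high levels in nearly all tumors and far lower in a small number. Most genes had a long lower tail and a short upper one. The range between the lowest and the highest tumor ran from 3.11-fold for Bub3, which carries checkpoint kinases to the kinetochore, to 17.6-fold for Birc5, which encodes survivin. The SD over the 126 tumors ran from 0.31 for Bub3 to 0.83 for Pttg1 on the log2 scale, with a median of 0.53, against 0.27 over all named genes tested.

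Cdc20, the APC/C activator on which the checkpoint acts, had a lowest, median and highest log2 value of 8.53, 10.46 and 11.05 in the 15 tumors under 1 g, and of 9.04, 10.91 and 11.29 in the 111 tumors of 1 g or more. Bub1, a kinase that recruits the other checkpoint proteins to kinetochores, had 7.41, 9.71 and 10.96 under 1 g and 8.39, 10.58 and 11.14 at 1 g or more. Bub3 had 9.59, 10.52 and 11.09 under 1 g and 9.58, 10.82 and 11.22 at 1 g or more. The size classes overlapped for each of the 3 genes, and the small tumors reached nearly the same highest values as the large ones.

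Among the kinases, Cdk1, which drives entry into mitosis, had 9.59, 11.24 and 11.81 under 1 g and 10.05, 11.61 and 12.01 at 1 g or more. Plk1, the polo-like kinase of centrosomes and kinetochores, had 7.94, 9.93 and 10.94 under 1 g and 8.39, 10.49 and 10.89 at 1 g or more. Aurkb, the catalytic subunit of the chromosomal passenger complex, had 8.37, 10.46 and 11.27 under 1 g and 9.39, 10.96 and 11.41 at 1 g or more. The highest Plk1 value of all tumors was in a tumor under 1 g. Of the motor and kinetochore genes, Kif11, the kinesin that pushes spindle poles apart, had 8.17, 10.32 and 11.44 under 1 g and 9.04, 11.01 and 11.56 at 1 g or more. Cenpf, a large kinetochore protein, had 7.80, 9.96 and 10.67 under 1 g and 8.46, 10.54 and 11.08 at 1 g or more. The medians of the small tumors were lower for both genes and the ranges overlapped.

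Mki67, which encodes the proliferation antigen Ki-67 that coats mitotic chromosomes, had 9.74, 11.45 and 11.78 under 1 g and 10.62, 11.69 and 12.16 at 1 g or more. Top2a, the topoisomerase that untangles sister chromatids, had 8.42, 10.81 and 11.49 under 1 g and 9.05, 11.38 and 11.80 at 1 g or more. Foxm1, the transcription factor that acts with MuvB, had 7.09, 9.08 and 9.78 under 1 g and 7.24, 9.60 and 10.14 at 1 g or more. The plot of member levels by tumor burden shows a band of low tumors at its left end and single low columns further right, with Pttg1, Ccnb2 and Incenp as rows with a pattern of their own.

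**Figure D1:**
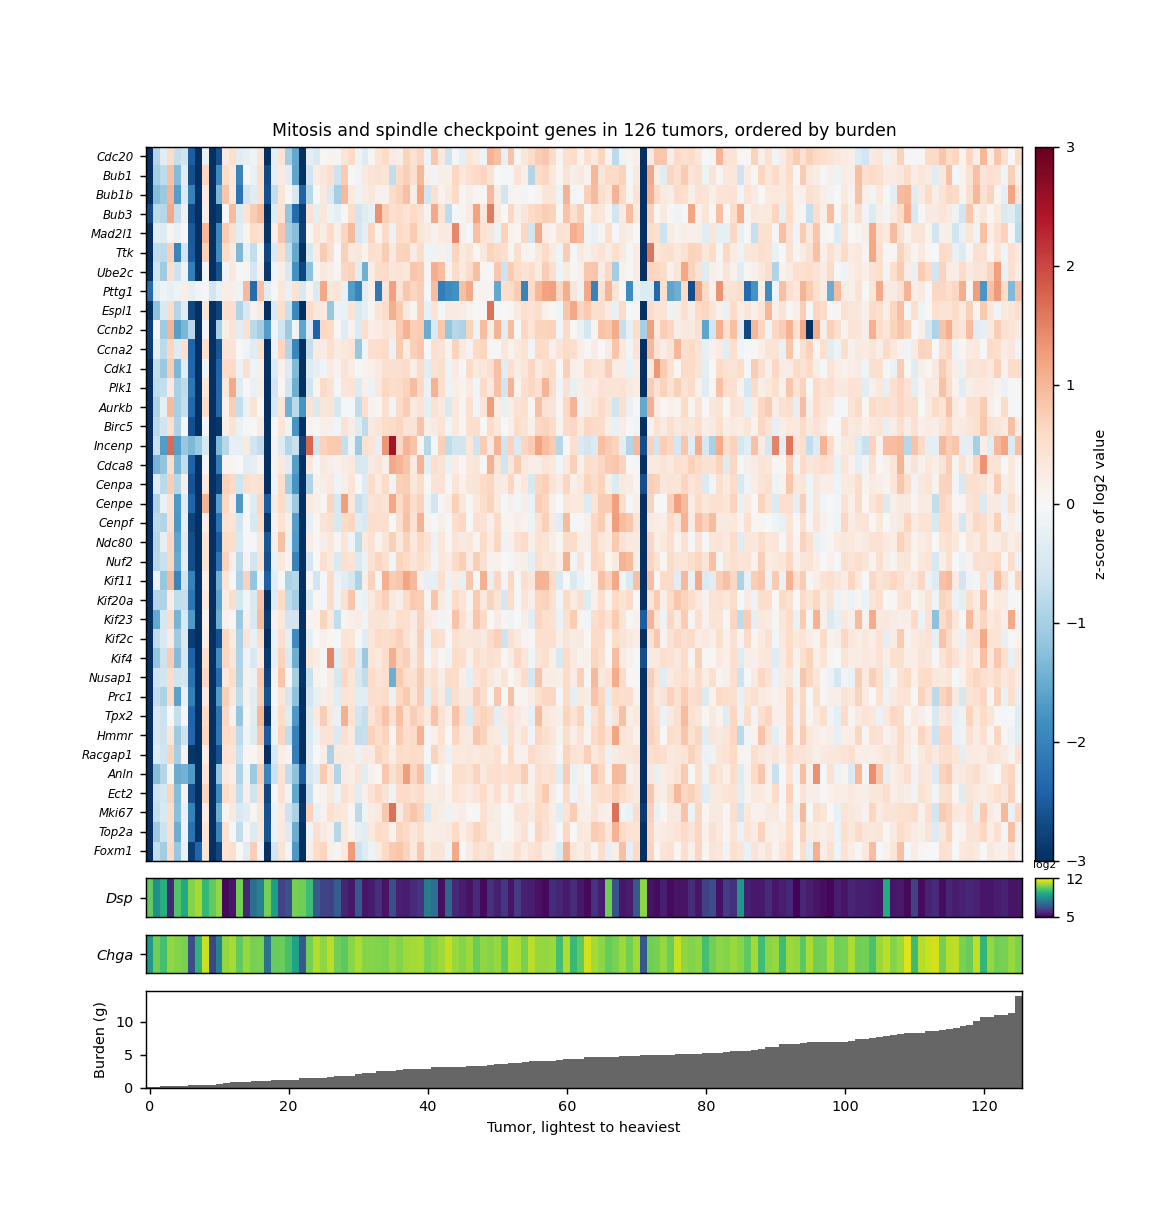
Log2 values of the 37 mitotic genes as z-scores over the 126 tumors (1 row per gene in order of role, 1 column per tumor from the lightest to the heaviest), above the log2 values of Dsp and Chga and bars of burden in g. Low values stand in whole columns, most of them at the left end among the 15 tumors under 1 g, and the Pttg1 row has low values of its own in 22 tumors.

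Over all 126 tumors, 36 of the 37 genes were higher with greater primary tumor burden in limma at a Benjamini-Hochberg adjusted p under 0.05, where 20.3% of the 23507 probe sets tested were called in that direction. The median slope was 0.0616 log2 units per g, against 0.00356 over all probe sets tested, and the slopes ran from 0.025 for Bub3 to 0.0969 for Birc5. All 9 motor and spindle genes, all 5 kinetochore genes, all 4 genes of the chromosomal passenger complex, all 4 cyclins and kinases, the 3 cytokinesis genes and the 3 proliferation genes were called, as were 8 of the 9 checkpoint and anaphase genes. The exception was Pttg1, which encodes securin, the inhibitor of separase, with a slope of 0.0504 ± 0.024 (SE) and an adjusted p of 0.0899.

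Within each role the gene with the largest and the smallest t statistic was as follows. Among the checkpoint and anaphase genes the largest was that of Cdc20, with a slope of 0.0707 ± 0.0138 log2 units per g (adjusted p = 2.72e-05, limma). Of the cyclins and kinases, Cdk1 rose by 0.049 ± 0.0105 and Ccna2, the cyclin A of S phase and early mitosis, by 0.0475 ± 0.0123 per g. In the chromosomal passenger complex, which corrects wrong attachments, Aurkb rose by 0.0641 ± 0.013 and its scaffold Incenp by 0.0497 ± 0.0134. Of the kinetochore genes, Nuf2, a subunit of the microtubule-binding Ndc80 complex, rose by 0.0811 ± 0.0189 and Cenpe, a kinesin that carries chromosomes to the equator, by 0.0525 ± 0.0149. Kif11 rose by 0.0758 ± 0.0161 and Tpx2, which targets Aurora A to the spindle, by 0.0526 ± 0.0161. Of the cytokinesis genes, Anln, a scaffold of the contractile ring, rose by 0.0521 ± 0.0111 and Ect2, an exchange factor of the dividing cell, by 0.0604 ± 0.0149. Top2a rose by 0.0704 ± 0.0151 and Foxm1 by 0.0555 ± 0.0149.

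**Figure D2:**
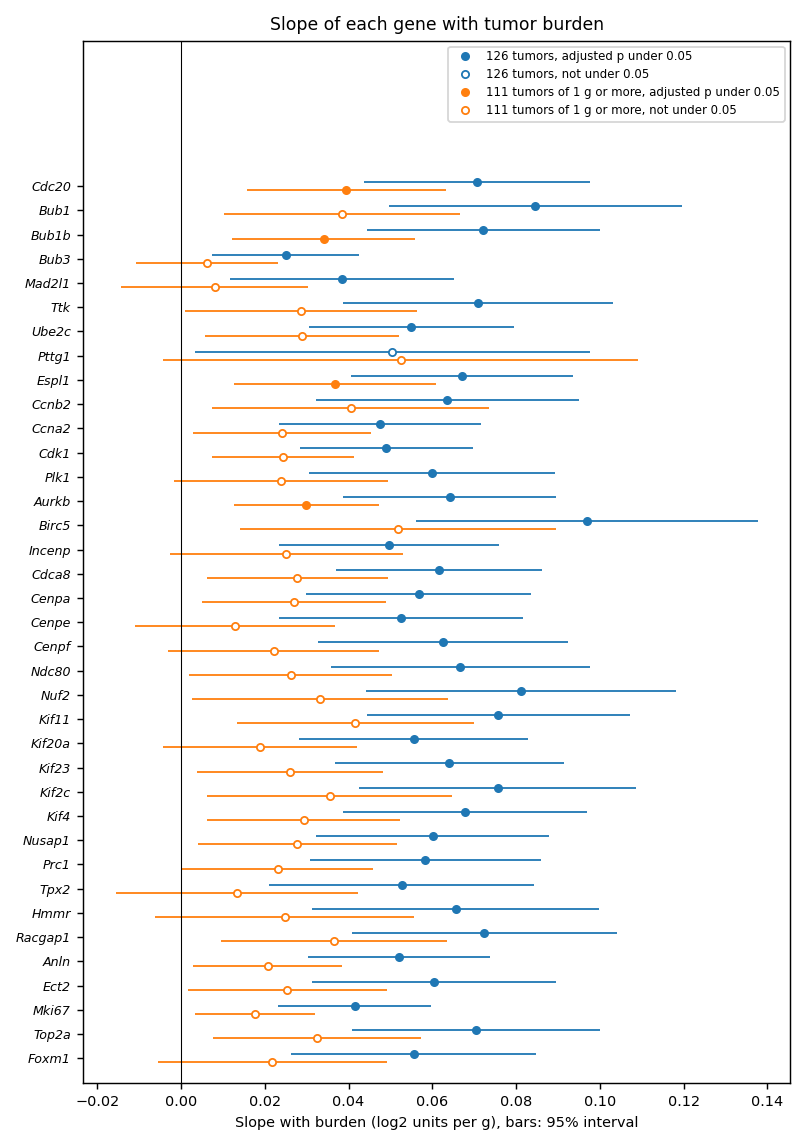
Slope of each of the 37 genes on primary tumor burden in log2 units per g, with its 95% interval, over all 126 tumors and over the 111 tumors of 1 g or more, with filled points for an adjusted p under 0.05. The slopes over all tumors lie around 0.0616 and those of the larger tumors around 0.027, all of them above 0.

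The single relations were moderate in size. Pearson's r between Cdc20 and burden was 0.416 (two-sided permutation p = 1e-05, the smallest that 100000 resamples can give) and Spearman's rank correlation 0.413. For Aurkb, r was 0.404 (permutation p = 2e-05) and the rank correlation 0.383. Bub3 had r = 0.242 (permutation p = 0.0061) but a rank correlation of 0.119 (permutation p = 0.183), and Mad2l1, Tpx2, Cenpe and Foxm1 were the others of the 37 whose relation by ranks had a permutation p of 0.05 or more. The median was 0.357 for r and 0.284 for the rank correlation over the 37 genes, and 0.367 for r without the 2 tumors farthest from the median burden. In all, 296 correlations of 37 genes in 8 relations were computed, and their p-values are unadjusted. The sources used here do not say what the mouse tag number stands for, and it served only to group the males. Within its 4 ranges, of 18, 21, 39 and 48 tumors, the median r with burden was 0.399, 0.61, 0.365 and 0.266.

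The mitotic genes were lower in the smallest tumors. Under 1 g, 36 of the 37 genes were lower than in tumors of 1 g or more, where 22.2% of all probe sets tested were lower. The median difference was -0.742 log2 units, or 1.67-fold, against -0.0208 over all probe sets tested. Birc5, whose product is the chromosomal passenger subunit survivin, was 2.06-fold lower (95% interval 1.6 to 2.66), Bub1 2.01-fold (1.63 to 2.48) and Nuf2 2.01-fold (1.61 to 2.52). Ttk, the kinase Mps1 that starts the checkpoint signal, was 1.85-fold lower and Kif2c, a kinesin that takes microtubules apart, 1.84-fold. Bub1b, which encodes BubR1, was 1.79-fold lower (1.51 to 2.11) and Cdc20 1.67-fold (1.41 to 1.98). The smaller differences were 1.42-fold for Mki67 (1.27 to 1.59) and 1.29-fold for Bub3 (1.16 to 1.43). For Pttg1 the difference was -0.191 ± 0.226 log2 units (adjusted p = 0.534, limma).

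The genes of largest and smallest t statistic in the other roles were all lower under 1 g. Cdca8, which encodes borealin of the chromosomal passenger complex, had a difference of -0.731 ± 0.109 log2 units, and Incenp -0.556 ± 0.121. Cenpf had -0.823 ± 0.131 and Cenpa, the histone of centromeres, -0.654 ± 0.121. Kif23, the kinesin of the central spindle, had -0.799 ± 0.12 and Tpx2 -0.764 ± 0.14. Racgap1, which binds the product of Kif23, had -0.812 ± 0.143 and Anln -0.652 ± 0.0947. Cdk1 had -0.548 ± 0.0933, Ccnb2, a mitotic B-type cyclin, -0.595 ± 0.148, Top2a -0.827 ± 0.132 and Foxm1 -0.702 ± 0.131. All of these passed the adjusted threshold, and the largest t statistic of the 37 genes was that of Anln.

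The low values belonged to the same few tumors rather than to all small ones. The 10 tumors with the lowest mean z-score over the 37 genes were N275 (0.46 g), N820 (0.1 g), N1202 (0.4 g), N1423 (4.9 g), N1086 (1.4 g), N614 (1.02 g), N293 (0.4 g), N582 (0.52 g), N586 (1.16 g) and N1159 (0.3 g). Their mean z-scores ran from -4.48 to -1.16, while the highest of any tumor was 0.68. Of these 10 males, 6 had a burden under 1 g and 6 had distant metastasis. In 8 tumors, at least 34 of the 37 genes were among their own 10 lowest values, and N275 held the lowest value of 26 genes. These tumors were chosen by the values described, and nothing was tested between them and the rest.

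The same 10 tumors had log2 Dsp values of 10.09 to 11.05, against a median of 5.70 in all tumors, and Chga values of 6.45 to 10.70. High Dsp did not always go with such low values. N1234, with Dsp at 10.47, had a mean z-score of 0.32, and N183, with Dsp at 10.54, had -0.69. Dsp was at or above 7 in 11 of the 15 tumors under 1 g and in 16 of the 111 larger ones. In 35 of the 37 genes the lowest value lay in a tumor with Dsp at or above 7. The other 4 tumors under 1 g, with Dsp below 7, had Cdc20 at 10.64 to 11.05, Bub1 at 10.35 to 10.96, Mki67 at 11.50 to 11.78, Top2a at 11.19 to 11.49 and Aurkb at 10.72 to 11.27. These values lay within the range of the larger tumors. A tumor sample holds all cells of the piece taken, so fewer cells in mitosis and less of these RNAs per cell cannot be told apart.

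**Figure D3:**
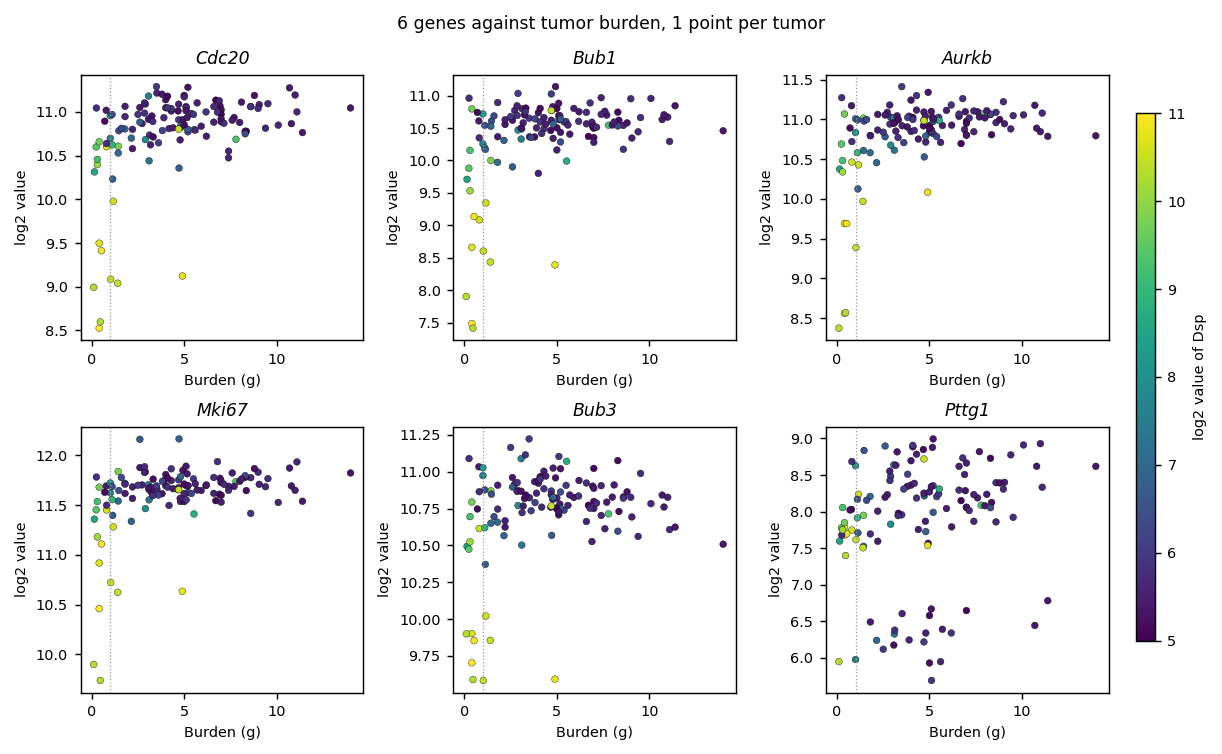
Log2 values of Cdc20, Bub1, Aurkb, Mki67, Bub3 and Pttg1 against primary tumor burden in g, 1 point per tumor, coloured by the log2 value of Dsp, with a dotted line at 1 g. Except for Pttg1, the lowest points are tumors with Dsp above 10, including N1423 at 4.9 g, and the Pttg1 points form separate bands below 6.78 and above 7.40.

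In the 111 tumors of 1 g or more, 4 of the 37 genes were higher with burden, where 3.70% of all probe sets tested were. They were Aurkb (0.0299 ± 0.00885 log2 units per g, adjusted p = 0.0244, limma), Cdc20 (0.0394 ± 0.0121, adjusted p = 0.029), Bub1b (0.0341, adjusted p = 0.041) and Espl1, which encodes the cohesin protease separase (0.0367, adjusted p = 0.046). All 37 slopes were positive, with a median of 0.027, against 0.00266 over all probe sets tested, and 26 had an unadjusted p under 0.05. Among the genes with the smallest t statistic in their role, Mad2l1, the Mad2 of the checkpoint, had a slope of 0.00802 ± 0.0114. Cenpe had 0.0129 ± 0.0122 and Tpx2 0.0133 ± 0.0148. In the other roles the slopes were 0.0218 ± 0.0139 for Foxm1, 0.0239 ± 0.013 for Plk1, 0.0251 ± 0.0142 for Incenp and 0.0254 ± 0.0121 for Ect2. The median was 0.213 for r and 0.128 for the rank correlation. Within the 4 tag ranges the median r was 0.148, 0.552, 0.14 and 0.152, and 25, 36, 33 and 37 of the 37 genes had a positive r.

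The count of called genes at 1 g or more changed with the tumors included and with the processing. It was 11 without N1423, the array of lowest mean correlation among these tumors, 5 without N1423 and N1086, and 0 without the 4 tumors of highest Dsp, which were N1423, N586, N614 and N1234. On the log2 scale of burden it was 30. It was 12 with tag number range as a block, 2 with arrays centred on their median, 2 without the 2 tumors of most extreme burden and 1 in the rank test. These counts are given without the share of all probe sets called in the same setting. They therefore cannot show whether a change was particular to the mitotic genes.

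The mitotic genes stood opposite Dsp and beside Chga. Over all tumors, 36 of the 37 genes were lower with higher Dsp, where 33.8% of the probe sets tested were, and 36 were higher with higher Chga, where 30.2% were. In the tumors of 1 g or more the counts were 36 with Dsp, against 25%, and 36 with Chga, against 24.4%. Pttg1 was the exception each time, with -0.0443 ± 0.0437 per log2 unit of Dsp (adjusted p = 0.395, limma) and 0.123 ± 0.0804 per log2 unit of Chga (adjusted p = 0.191) over all tumors. The rank test called 10 with Chga and 24 with Dsp at 1 g or more. Both counts lack the share of all probe sets called in that test. They cannot show whether the change was particular to the mitotic genes.

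The median slope on Dsp over all tumors was -0.23, and in size the slopes were led by Birc5 (-0.342 ± 0.0268), Nuf2 (-0.31 ± 0.0236), Bub1 (-0.296) and Kif2c (-0.285 ± 0.0206). Ttk had -0.276 ± 0.0199 (adjusted p = 2.16e-25, the smallest of the 37), and Mki67 had -0.133 ± 0.0136. The median slope on Chga was 0.427. Racgap1, which acts at the central spindle, had 0.546 ± 0.031 (adjusted p = 2.85e-33), Birc5 0.694 ± 0.0424, Foxm1 0.486 ± 0.0293 and Mki67 0.268 ± 0.0234. At 1 g or more the medians were -0.18 with Dsp and 0.347 with Chga.

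Most tumors had low Dsp values and the others spread up to 11.05, and the limma slopes above were fitted across both. Correlations with Dsp and with Chga were therefore read only within each side of 7, a cut at which the values have no gap. In the 27 tumors with Dsp at or above 7, the median r of the 37 genes was -0.654 with Dsp and 0.841 with Chga. Racgap1 had r = -0.721 with Dsp (permutation p = 5e-05) and 0.901 with Chga, and Foxm1 had 0.93 with Chga (permutation p = 1e-05). Without the 2 tumors farthest from the median Chga the median r was 0.821. Pttg1 had 0.057 with Dsp and 0.166 with Chga.

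In the 99 tumors with Dsp below 7, the relations were weaker and of mixed sign. The median r was -0.152 with Dsp, -0.079 without the 2 tumors farthest from the median Dsp, and the median rank correlation was -0.077. The strongest were those of Cenpa (-0.411, permutation p = 7e-05), Racgap1 (-0.389), Cdk1 (-0.376) and Cdc20 (-0.36). It was 0.058 with Chga, from 0.398 for Plk1 (permutation p = 4e-05) to -0.322 for Mad2l1 (permutation p = 0.00117). With burden, the median r was -0.007 in these 99 tumors, from -0.243 for Bub3 to 0.173 for Cdc20, and 18 of the 37 were positive. It was 0.288 in the 27 tumors of the other side, where all 37 were positive. Without the 2 of these tumors farthest from their median burden it was 0.202. An unadjusted permutation p under 0.05 was found there for 2 of the 37 by r and for 21 by ranks.

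With Dsp and burden in 1 model, the slope on burden passed the threshold for 0 of the 37 genes in limma, where 0.115% of the probe sets tested passed, and 1 had an unadjusted p under 0.05. The median slope on burden was then -0.00255 log2 units per g. With Chga in place of Dsp, 22 genes were higher with burden, where 7.88% of the probe sets were, with a median of 0.0279. Cdc20 kept 0.0383 ± 0.00936 and Kif11 0.0417 ± 0.0122, while Bub3 had 0.00404 ± 0.00614. The count with Chga was 36 on the log2 scale of burden and 6 with the mean of 13 neuroendocrine genes in place of Chga. The share of all probe sets called in the same setting is not given for either count. Whether these changes were particular to the mitotic genes can therefore not be read from them.

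Distant metastasis was not associated with any of the 37 genes at the adjusted threshold. Called were 0 over all tumors, where 0% of the probe sets tested were, 0 at 1 g or more and 0 for the interaction of burden and metastasis, each also against 0%. At an unadjusted p under 0.05 there were 0, 0 and 7 genes in limma, and the rank test and the methods' test also called 0 for metastasis. The median of the differences (metastasis minus none) was 0.0507 log2 units over all tumors, with 33 of 37 higher in males with metastasis, and -0.0234 at 1 g or more, with 10 higher.

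In single genes, Mad2l1 had a difference of 0.12 ± 0.0903 log2 units, Ccnb2 -0.114 ± 0.11, Incenp -0.11 ± 0.0909 and Cenpa 0.0961 ± 0.094. Those of Tpx2 (0.088 ± 0.109), Racgap1 (0.0604 ± 0.112) and Foxm1 (0.0602 ± 0.102) lay within 1 SE, and Mki67 had -0.00623 ± 0.0651. The median interaction was -0.0574 log2 units per g, with 35 of 37 negative. A negative value is a smaller slope on burden in males with metastasis. The smallest adjusted p of the interaction over the 37 genes was 0.312 (limma), so a difference in slope was not detected. The genes varied together, so counts of signs here and among the differences above are not separate observations.

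The mitotic genes varied together. Over the 666 pairs, the median r was 0.894 in all tumors, and 552 pairs (82.9%) were over 0.8. The pair with the highest r was Nuf2 and Top2a (0.973) and that with the lowest was Bub3 and Pttg1 (0.11). The median was 0.805 at 1 g or more and 0.94 in the 27 tumors with Dsp at or above 7, where Cenpf and Nuf2 had 0.992. In the 99 tumors with Dsp below 7 it was 0.341, and 0 pairs were over 0.8. The median rank correlation was 0.544 in all tumors, 0.86 in the 27 and 0.329 in the 99, against the medians of r of 0.894, 0.94 and 0.341. These are descriptions over points that share array and normalization.

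**Figure D4:**
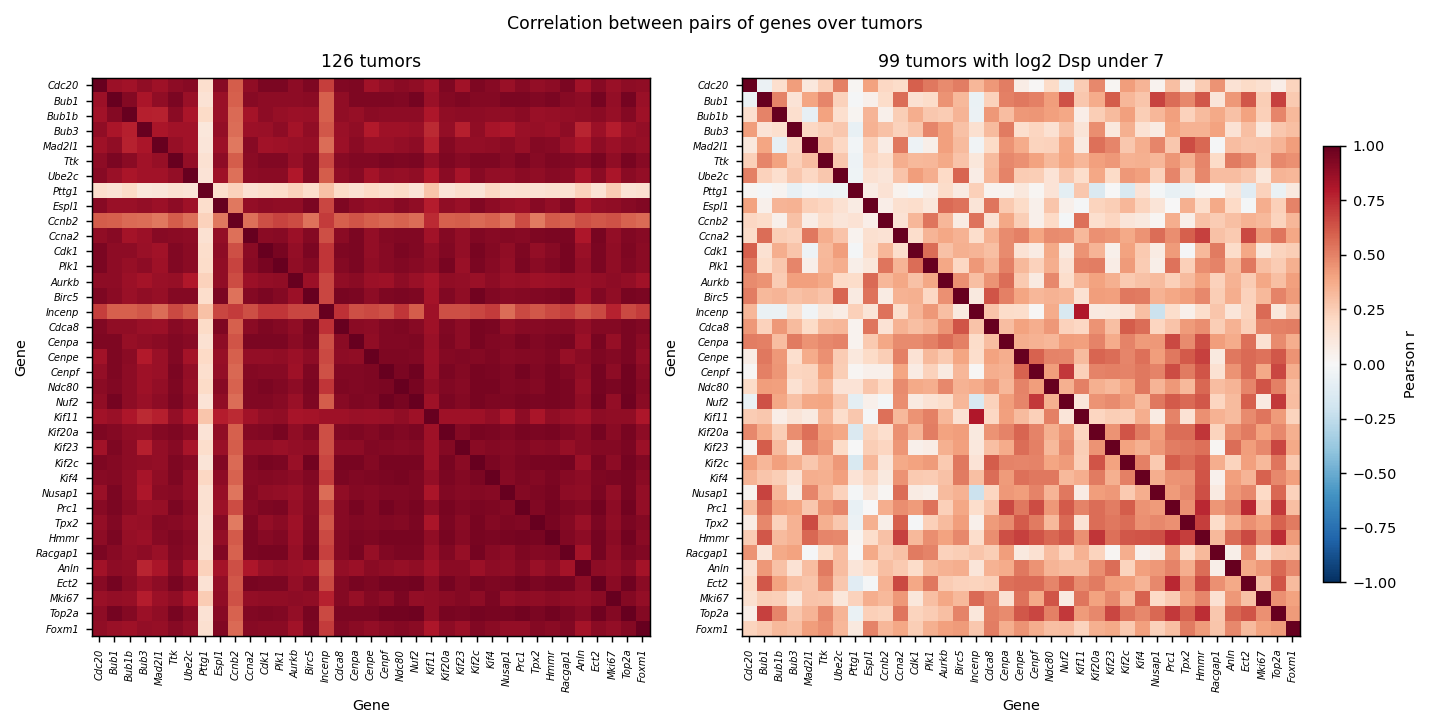
Pearson's r between each pair of the 37 mitotic genes, in all 126 tumors and in the 99 tumors with log2 Dsp below 7, with genes in the same order. The median pair has r = 0.894 in the first and 0.341 in the second, and Pttg1, Ccnb2 and Incenp stand apart from the others.

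The genes nearest to the mean of the others over all tumors were Top2a (r = 0.978), Ect2 (0.975) and, level with each other, Hmmr, a spindle and hyaluronan-binding protein, Ndc80, the partner of Nuf2, and Kif2c (0.97 each). Incenp (0.709), Ccnb2 (0.637) and Pttg1 (0.186) were the least alike. In the 99 tumors with Dsp below 7, the SD of 33 genes lay between 0.11 and 0.23 on the log2 scale. Kif11 (0.30), Incenp (0.35), Ccnb2 (0.46) and Pttg1 (0.86) lay above that. Hmmr kept r = 0.857 with the mean of the others in these tumors, Top2a 0.759, Bub3 0.44 and Pttg1 0.052.

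Pttg1 fell into separate levels. In 22 tumors its log2 value was 5.69 to 6.78, with a median of 6.33, and in the other 104 it was 7.40 to 8.99, with a median of 8.21, with 0.62 between them and no tumor in that gap. The lower level was found in 15 of the 87 males with distant metastasis (17.2%) and 7 of the 39 without (17.9%). It was found in 1 of the 15 tumors under 1 g, in 9 of 40 from 1 to under 4 g, in 9 of 42 from 4 to under 7 g and in 3 of 29 of 7 g or more. By Dsp, it was found in 19 of the 99 tumors below 7 and in 3 of the 27 others. These levels were split by the values themselves, and no difference between them was tested.

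Some genes were most like genes of their own chromosome. For each of the 37, the 20 named genes with the largest size of r in the 99 tumors with Dsp below 7 were taken from 20599 genes placed by RefSeq, a description chosen after the values were seen. For Incenp all 20 lay on chromosome 19, as does Incenp itself, where 3.23% of the placed genes lie, and r with the mean of the other genes there was 0.859. For Kif11, also on chromosome 19, it was again 20 of 20, with r = 0.763. The genes most like Incenp were Sf3b2 (r = 0.912) and Actr1a (0.871), and those most like Kif11 were Cep55 (0.891) and Smc3 (0.867). Racgap1 had 17 of 20 on its chromosome 15, Ttk 13 and Kif23 11 on chromosome 9, and the median over the 37 genes was 4.

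Ccnb2, on chromosome 9, had none of its 20 there, and 9 of its 10 most alike genes lay on chromosome 19, among them Sfr1 (r = 0.606) and Smc3 (0.593). Pttg1 had 18 of 20 on its chromosome 11, where 7.79% of the placed genes lie, but its r with the mean of that chromosome was 0.084. Its most alike genes there moved in both directions, with -0.651 for 2610507I01Rik, -0.622 for Lyrm7 and -0.621 for Mrpl55, and 0.507 for B9d1. Cdc20 and Prc1 had 0 of 20 on their own chromosomes.

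Among genes outside the list, those most like the mean of the 37 over all tumors were Kif22 (r = 0.966), Ckap2l (0.965), Ckap5 (0.964), Smc2 (0.964) and Arhgap11a (0.963), followed by Knl1, Spag5, Gas2l3, Aspm and Dlgap5. Of these 10, all but Gas2l3 were in a list of other mitotic genes. The genes most opposite were Prodh (-0.923), Flvcr2 (-0.919), Carmn (-0.917), Agmo (-0.915) and Mylk (-0.908). In the 99 tumors with Dsp below 7, Kif22 had 0.659, Spag5 0.718 and Prodh -0.282.

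The rest of the cell cycle machinery moved with burden to different degrees. Of 70 other mitotic genes, 68 were higher with burden over all tumors, where 20.3% of all probe sets tested were higher and 16.4% lower, with a median slope of 0.0617, led by Cdca5, the cohesin protector sororin (0.0773), Fbxo5, the APC/C inhibitor Emi1 (0.0753), and Sgo1, which guards centromeric cohesin (0.0737). Of 39 DNA replication genes 37 were higher, among them the single-strand binding subunit Rpa2 (0.0572), the helicase subunit Mcm7 (0.0464) and the clamp loader subunit Rfc5 (0.0494). Of 14 genes listed for the APC/C, which include Fzr1, 7 were higher. Of 12 genes of the DREAM and MuvB complexes and their partners, which include Foxm1, 7 were higher and 2 lower. Of 15 inhibitors of cyclin-dependent kinases and growth arrest genes, 6 were higher, such as Ccng2 (0.0595), and 3 lower, such as the pocket protein gene Rbl2 (-0.0583) and the p53 target Ccng1 (-0.0646). At 1 g or more the counts higher were 5 of 70, 13 of 39, 3 of 14, 2 of 12 and 2 of 15, against 3.70% of all probe sets, and 2 of the 15 were lower, against 4.54%. Under 1 g, where 22.2% of all probe sets were lower, all 70 other mitotic genes and all 39 replication genes were lower.

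Over all tumors, most marker genes of other cells were lower with burden or did not pass the test, and most neuroendocrine genes were higher. Of the probe sets tested, 16.4% were lower with burden and 20.3% higher. All 15 epithelial junction genes were, such as Cdh1, the gene of E-cadherin (-0.313 log2 units per g). The lowest, median and highest mean of that list was 6.09, 8.76 and 9.91 under 1 g and 5.90, 6.33 and 9.86 at 1 g or more. All 6 smooth muscle genes were lower with burden, with 6.70, 9.08 and 11.03 under 1 g and 6.17, 7.11 and 11.09 at 1 g or more. All 5 prostate secretory genes, 5 of 6 fibroblast genes, 3 of 5 seminal vesicle genes, 3 of 6 macrophage genes, 3 of 6 T cell genes, 2 of 5 endothelial genes and 1 of 3 B cell genes were also lower, and none of these was higher. The shares of all of these lists but the epithelial junction list rest on few genes, 6 or fewer. Of 13 neuroendocrine genes, 11 were higher with burden, with a list mean of 6.17, 9.43 and 10.01 under 1 g and 6.67, 9.80 and 10.30 at 1 g or more. In the tumors of 1 g or more, 2 of the 13 were higher with burden, against 3.70% of all probe sets. Lower there, against 4.54%, were 10 of 15 epithelial junction genes, all 6 smooth muscle genes and 3 of 5 prostate secretory genes. So were 3 of 6 fibroblast genes and 1 of 6 macrophage genes, and none of the seminal vesicle, T cell, B cell and endothelial genes. The part of these cells in the differences of the mitotic genes was not tested.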

How the data were processed

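RNA was isolated from snap-frozen tumors with a column kit per the labels, while the paper's methods name TRIzol Reagent. The authors deposited log2 values, which they had made in Partek by RMA (background correction, quantile normalization and summary over probes). Partek's version was not given in the sources used here. The values were used as deposited.

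Probe sets with a symbol and a mean at or above the 10th percentile of all means, 3.42, were fitted by lmFit and eBayes of limma 3.58.1 under R 4.3.3, with Benjamini-Hochberg adjustment over all of them and a threshold of 0.05. Errors of slopes and differences are SE. Permutations of 100000 resamples, correlations and figures were made in Python 3.11.15 (scipy 1.17.1, numpy 2.4.6, pandas 2.3.3, matplotlib 3.10.9). The fit was tested on simulated data. All 38 genes were accounted for, with full values for 12 chosen genes and, in each comparison, for those of largest and smallest t in each role. The 38 genes and the other gene lists were chosen with earlier results of these data known. Each male gave 1 sample, and no columns were left unmapped.

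The alternatives were no filter or a 25th percentile filter, centring or repeated quantile normalization, a block for tag number range, omission of the array of lowest mean correlation or the 2 tumors of most extreme burden, log2 burden, burden as a covariate, the methods' test (Pearson's correlation or Student's test of means) and rank tests. Leaving out 2 arrays or the 4 tumors of highest Dsp, and list means as covariates, were added after seeing the data. Age at death, genotypes and human cohorts were not analysed here.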

Additional observations from a re-analysis of the deposited data

How the results depend on the processing

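Over 12 counts of called genes there were 115 values under alternatives, of which 105 lay within 1.5 times the main count. The other 10 were as follows. At 1 g or more, the 4 genes higher with burden became 2 with arrays centred on their median, 12 with tag number range as a block, 11 without N1423, 1 in the rank test, 30 on the log2 scale of burden, 2 without the 2 tumors of most extreme burden and 0 without the 4 tumors of highest Dsp. The 36 genes higher with Chga at 1 g or more became 10 in the rank test. The 22 genes higher with burden given Chga became 36 on the log2 scale of burden and 6 with the neuroendocrine mean as the covariate. These counts too are given without the share of all probe sets called in the same setting. The cause of the changes was not tested. The slopes of the 37 genes on burden kept their sign under each of 6 alternatives, and 32 lost the call in tumors of 1 g or more. Choosing a probe set of second highest mean gave no value, since each measured gene had 1 probe set that carries its symbol alone. Probe sets that carry several symbols, 2 for Top2a and 1 for Nusap1, were not read. No paired analysis was possible because each male gave a single tumor and the labels pair no males. The number of arrays limits the precision, and 15 tumors under 1 g carry the comparison of size classes.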
